A study of Homo sapiens with 4 samples.

Results

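The genes described here encode aminoacyl-tRNA synthetases, the enzymes that join each amino acid to its transfer RNA (tRNA) before translation. They were taken by gene symbol from a list of 36 names. The rule itself uses no measured value, but the names were chosen with earlier results of these data known. All 36 were found among the 28775 genes of the count table. Of these, 20 act in the cytosol and 16 in mitochondria, and the mitochondrial genes carry symbols ending in 2. The cells were HEK293T, a human embryonic kidney line that carries the SV40 large T antigen and grows rapidly in culture. Poly-A RNA was sequenced from 2 wild-type (WT) cultures and from 2 MORC2 knock-out (KO) cultures, and no drug treatment is recorded for any sample. MORC2 is an ATPase that binds and compacts DNA and works with the HUSH complex in gene silencing. Each KO culture was an edited pool rather than a single clone, checked by western blot. The pools were made by electroporation of Cas9 protein with gRNA 1 (KO replicate 1) or gRNA 2 (KO replicate 2). The KO replicates thus differ in guide as well as in culture. The methods do not say whether the WT cells were electroporated, so editing and handling cannot be told apart from genotype.

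Most synthetases of human cells come in separate cytosolic and mitochondrial forms, encoded by different nuclear genes. GARS1 and KARS1, for glycine and lysine, serve both compartments from a single gene, EPRS1 carries the glutamate and the proline activity in one chain, and QARS1 has no mitochondrial counterpart because mitochondria make glutaminyl-tRNA in a different way. Many cytosolic synthetase genes are targets of ATF4, the transcription factor of the amino acid and integrated stress response, which binds with C/EBP-family partners to a short composite element. The question put to the data was whether the cytosolic and the mitochondrial enzymes differed between MORC2 KO and WT cells, and whether they did so together.

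Total counts assigned to genes were between 53970043 and 64312514 per sample. MORC2 itself was measured at 51.2 and 55.0 CPM, the count scaled to library size, in the KO samples and at 86.2 and 87.7 CPM in WT, a log2 fold change of −0.71 with an adjusted p of 1.37e-04 in edgeR QL F-tests. Transcripts of the edited gene therefore remained in the KO pools, and 23.3% of its exon bases are shared with its antisense gene. Of the HEK293T markers, NEFL, NEFM and INA were detected in every sample, with INA reaching 74.8 CPM, but PAX2 and LHX1 did not exceed 1.60 and 0.969 CPM. Of the 5 markers of other cell types, COL1A1 reached 4.0 CPM and COL3A1 0.437 CPM, and PTPRC, PECAM1 and DES did not pass the low-count filter.

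The cytosolic synthetases were far more abundant than the mitochondrial ones. Per kilobase of exon in WT cells, cytosolic genes ranged from 14.4 CPM per kb for TARS3 to 200.8 CPM per kb for YARS1, with a median of 74.8, and mitochondrial genes from 3.64 CPM per kb for FARS2 to 66.2 CPM per kb for IARS2, with a median of 17.2. Of the 18 genes at the top of this order, 16 were cytosolic, and the other two were IARS2 and TARS2, the isoleucine and threonine enzymes of mitochondria. In the order of WT levels, 35 neighbouring pairs of genes can be compared, and in 11 of them the values of the 2 WT samples overlapped, so that their order is not set beyond the spread. Summed over the compartment, the cytosolic genes gave 1788 and 1753 CPM per kb in MORC2 KO and 1712 and 1759 CPM per kb in WT, which overlap. The mitochondrial genes summed to 340.7 and 332.1 CPM per kb in MORC2 KO and to 339.9 and 349.2 CPM per kb in WT. The ratio of the sums was 5.25 and 5.28 in KO and 5.04 and 5.04 in WT, so the cytosolic share was slightly greater in both KO samples. In bulk RNA, fewer cells that express a gene and less RNA per cell cannot be told apart.

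**Figure D1:**
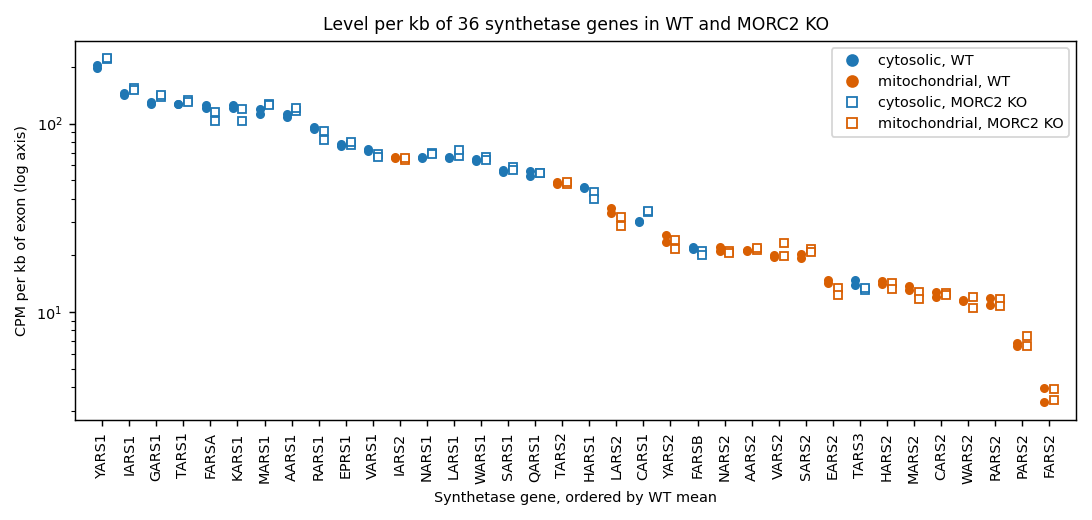
Level of each of the 36 synthetase genes in CPM per kilobase of exon on a log axis, with filled circles for the 2 WT and open squares for the 2 MORC2 KO samples. The cytosolic genes occupy 16 of the 18 highest places, and the KO and WT symbols of each gene lie close together.

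No synthetase gene passed the test between MORC2 KO and WT. All 36 genes passed the low-count filter, and none had an adjusted p under 0.05 in edgeR, either higher or lower, where 0.588% of the 16675 genes tested were called higher and 0.0300% lower. The smallest adjusted p among the synthetases was 0.218, for CARS1. DESeq2 also called none, against 0.858% of the genes to which it gave an adjusted p. In it, 5 synthetases had an unadjusted p under 0.05, a count for which no share over all genes was computed. At an unadjusted p under 0.05, 2 synthetases were higher in KO, CARS1 and YARS1, and 4 were lower, LARS2, FARSA, EARS2 and HARS1. Among all genes tested, 8.14% were higher and 6.17% lower at that level, which for the synthetases compares with 2 and 4 of 36.

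The log2 fold changes, given as KO minus WT throughout, lay between −0.19 and 0.18, with a median of 0.005 over the 36 genes and 0.005 over all genes tested. The 95% confidence intervals of all 36 genes lay inside ±0.4 on the log2 scale, or 1.32-fold, and 32 of them inside ±0.3. The lowest bound was −0.34, for LARS2, and the highest 0.30, for CARS1.

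**Figure D2:**
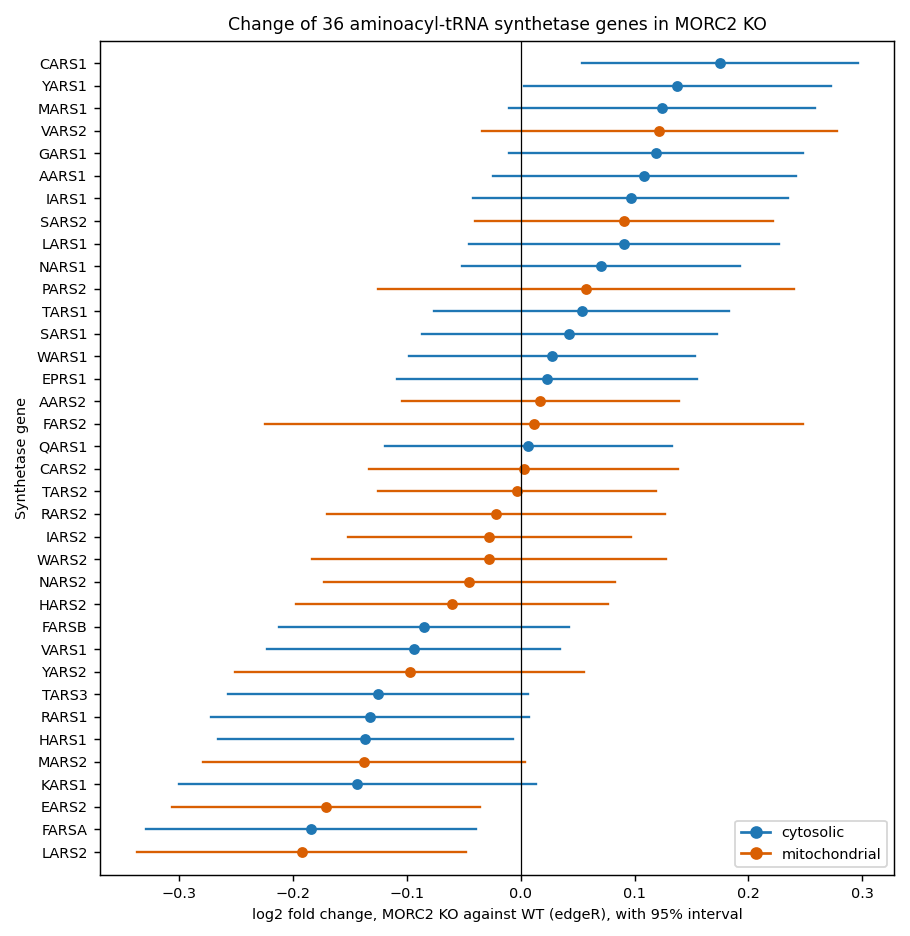
Log2 fold change, MORC2 KO minus WT, of each cytosolic and mitochondrial synthetase gene with its 95% confidence interval from edgeR. All points lie between −0.19 and 0.18, every interval stays inside ±0.4, and the intervals of 6 genes, CARS1, YARS1, HARS1, EARS2, FARSA and LARS2, do not reach 0.

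The 2 compartments differed little in their centre. The 20 cytosolic genes had a median log2 fold change of 0.04, with 13 values above 0 and 7 below, and leaving out 1 sample at a time gave medians from 0.0145 without KO replicate 1 to 0.0493 without WT replicate 2. The 16 mitochondrial genes had a median of −0.02, with 6 values above 0 and 10 below. Both KO samples exceeded both WT samples for 9 cytosolic genes and lay below them for 7, against 24.1% and 23.4% of all genes tested, and against 13.3% and 40.8% of the genes tested with a mean log2 CPM over 6. Only 1 mitochondrial gene was higher in both KO samples, 4 were lower, and the other 11 overlapped. The more abundant genes of the whole table tended to lower values. Relative to the WT mean, their median was −0.02 in KO replicate 1 and −0.07 in KO replicate 2. The cytosolic synthetases, though abundant, had a median above 0, with 7 of the 20 lower in both KO samples. This difference was not tested. Among those 4108 more abundant genes, the median log2 fold change was −0.05 and 29.6% of values were above 0, and the median log2 CPM was 8.10 for the cytosolic and 5.51 for the mitochondrial synthetases. With a loess correction for abundance in each library, the cytosolic median was 0.105, the mitochondrial median stayed at −0.02, and no synthetase passed the test. With library size alone and no scaling factor, both medians were above 0, at 0.07 and 0.01, so the sign of the mitochondrial median depends on the scaling. The median over all genes tested also rose, to 0.045, so the mitochondrial median stayed below it as in the main fit.

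On the higher side, the cytosolic genes were led by CARS1, the cysteine enzyme (chromosome 11, 3090162 to 3146645 of T2T-CHM13, minus strand). CARS1 was at 119.6 and 120.7 CPM in the KO samples and at 107.3 and 105.5 CPM in WT. The groups did not overlap, and the difference was 0.18 ± 0.06 (SE) on the log2 scale. CARS1 shares 8.57% of its exon bases with its antisense gene, and read pairs that overlapped both genes were left out by the counting used. YARS1, the tyrosine enzyme and the most abundant synthetase per kilobase (chromosome 1, 32635023 to 32677140, minus strand), was at 534.8 and 544.5 CPM in KO and at 481.7 and 499.4 CPM in WT. The difference was 0.14 ± 0.06 with an adjusted p of 0.341 in edgeR, and again both KO values stood above both WT values.

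Several other cytosolic enzymes had smaller positive values. MARS1, which charges methionine to both initiator and elongator tRNA, differed by 0.12, GARS1 by 0.12, and AARS1, the alanine enzyme, by 0.11. IARS1 differed by 0.10, LARS1 by 0.09, NARS1 by 0.07 and TARS1 by 0.05, these being the isoleucine, leucine, asparagine and threonine enzymes. Each of these 7 genes was higher in both KO samples than in both WT samples, and none passed the test. SARS1 at 0.04, WARS1 at 0.03, EPRS1 at 0.02 and QARS1 at 0.007 overlapped between genotypes.

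On the lower side of the cytosolic list stood FARSA, the catalytic α subunit of phenylalanyl-tRNA synthetase (chromosome 19, 13046966 to 13058199, minus strand). FARSA was at 207.9 and 185.8 CPM in KO and at 218.8 and 228.5 CPM in WT, a difference of −0.18 ± 0.07 with an adjusted p of 0.261 in edgeR. FARSB, which encodes the β subunit of the same tetramer, had a value of −0.08. KARS1, the lysine enzyme, was at 272.3 and 235.3 CPM in KO and at 275.3 and 285.4 CPM in WT, so that KO replicate 1 was close to WT and KO replicate 2 well below. HARS1, the histidine enzyme (chromosome 5, 141199302 to 141216757, minus strand), was at 84.0 and 77.9 CPM in KO against 89.3 and 88.7 CPM in WT. Its log2 fold change was −0.14 ± 0.06, with an adjusted p of 0.330 in edgeR. RARS1, the arginine enzyme, had a value of −0.13 and VARS1, the valine enzyme, −0.09.

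TARS3 is a paralog of TARS1 and the least abundant of the cytosolic genes. It was at 45.3 and 46.6 CPM in KO and at 48.5 and 51.7 CPM in WT, with a log2 fold change of −0.13 and an adjusted p of 0.369 in edgeR. The 2 threonine enzymes of the cytosol thus had values of opposite sign, and the ratio of TARS1 to TARS3 per kilobase was 10.2 and 9.77 in KO against 9.12 and 8.52 in WT.

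EPRS1, IARS1, KARS1, LARS1, MARS1, QARS1 and RARS1 encode enzymes of the multi-synthetase complex, which are held together on scaffold proteins. The median over these 7 genes was 0.02 and that over the 13 cytosolic genes outside the complex was 0.04, and the complex members spanned −0.14 for KARS1 to 0.12 for MARS1. By the fold of the catalytic domain, 8 of the 10 cytosolic class I genes and 5 of the 10 class II genes had values above 0, with medians of 0.06 and −0.02. Dominant mutations of 6 cytosolic synthetases, AARS1, GARS1, HARS1, MARS1, WARS1 and YARS1, are linked to inherited axonal neuropathy, a disease group to which MORC2 mutations also belong. For these 6 the median was 0.11, 5 values were above 0 and HARS1 was below, and none passed the test. Over the whole cytosolic list 65% of values were above 0, and over all genes tested 51.5%. The groupings are not independent, as AARS1, GARS1 and MARS1 also recur in the promoter comparison below.

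**Figure D3:**
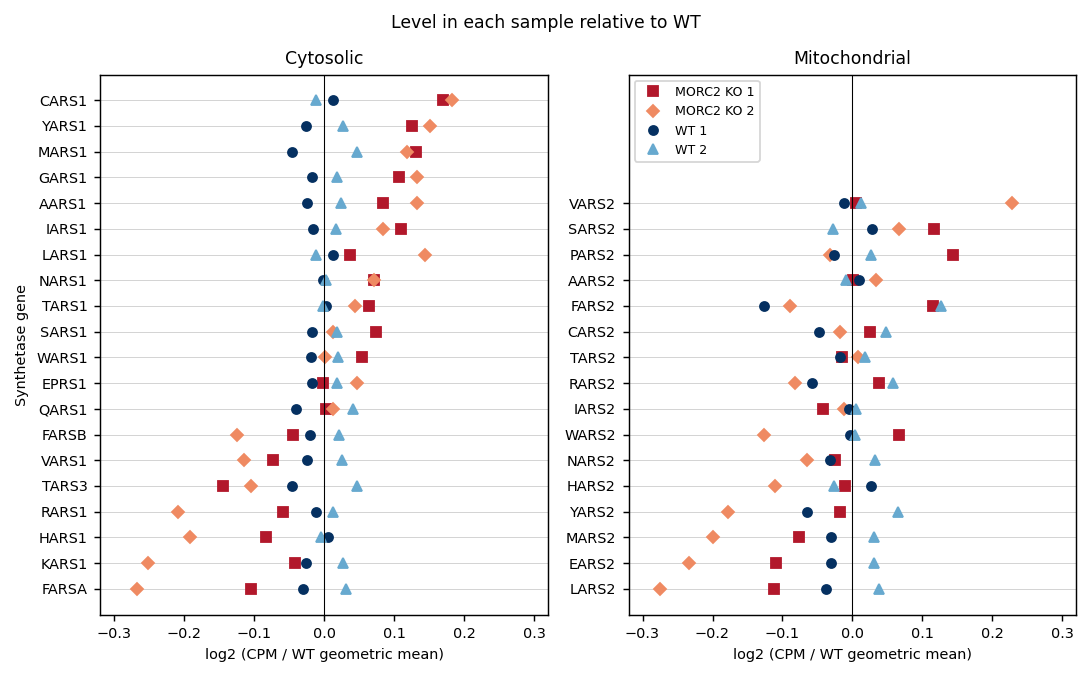
Value of each sample relative to the WT mean on the log2 scale, for each of the 36 synthetase genes, with a symbol for each sample. CARS1 and YARS1 show both KO samples above both WT samples, and for LARS2, FARSA, EARS2 and HARS1 both KO samples lie below, with KO replicate 2 the lower of the pair.

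Among the mitochondrial synthetases, the lowest values belonged to LARS2 and EARS2. LARS2, the mitochondrial leucine enzyme (chromosome 3, 45404942 to 45565766, plus strand), was at 153.1 and 136.8 CPM in KO and at 161.2 and 170.1 CPM in WT. Its log2 fold change was −0.19 ± 0.07, with an adjusted p of 0.249 in edgeR. EARS2, which charges glutamate in mitochondria and also starts the route to mitochondrial glutaminyl-tRNA (chromosome 16, 23796546 to 23833174, minus strand), was at 73.4 and 67.4 CPM in KO and at 77.6 and 80.9 CPM in WT. Its log2 fold change was −0.17 ± 0.06, with an adjusted p of 0.267 in edgeR. For both genes the KO samples lay below the WT samples, by more in KO replicate 2 than in KO replicate 1.

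On the higher side, VARS2, the mitochondrial valine enzyme, was at 74.0 and 86.3 CPM in KO and at 73.1 and 74.3 CPM in WT. Its difference of 0.12 came from KO replicate 2, and KO replicate 1 lay between the WT samples. SARS2, the mitochondrial serine enzyme, was at 43.1 and 41.6 CPM in KO and at 40.5 and 39.0 CPM in WT, a difference of 0.09, and it was the 1 mitochondrial gene with both KO samples above both WT samples. The other mitochondrial genes were PARS2 at 0.06, AARS2 at 0.02, FARS2 at 0.01, CARS2 at 0.003, TARS2 at −0.003, RARS2 at −0.02, IARS2 and WARS2 at −0.03, NARS2 at −0.05, HARS2 at −0.06, YARS2 at −0.10 and MARS2 at −0.14. MARS2, a gene with a single exon, was at 38.6 and 35.5 CPM in KO and at 39.9 and 41.6 CPM in WT. FARS2, at about 11 CPM the lowest of all, had the widest standard error, 0.11. HARS1 and HARS2 lie head to head on chromosome 5 with 84 bases between them, and their values of −0.14 and −0.06 had the same sign. HARS2 overlapped between genotypes, however, and was at −0.01 without KO replicate 2.

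The 2 KO samples did not contribute equally. KO replicate 2 was the lowest of the 4 samples in 15 of the 36 synthetases, or 41.7%, and in 9 of the 16 mitochondrial ones, where the same held for 33.9% of all genes tested and for 59.8% of those with a mean log2 CPM over 6. The median absolute log2 difference over the synthetases was 0.05 between the 2 WT samples and 0.05 between the 2 KO samples. Against the WT samples it was 0.07 and 0.07 for KO replicate 1, and 0.10 and 0.12 for KO replicate 2. Over the genes tested with a mean log2 CPM over 6, it was 0.04 between the 2 WT samples and 0.08 between the 2 KO samples. Against the WT samples it was there 0.05 and 0.05 for KO replicate 1, and 0.10 and 0.12 for KO replicate 2. The distance of KO replicate 2 from WT was thus much the same over these genes as over the synthetases. Without KO replicate 1, edgeR called 10 synthetases, CARS1 and VARS2 higher and EARS2, FARSA, HARS1, KARS1, LARS2, MARS2, RARS1 and YARS2 lower, when 8.16% and 12.4% of all genes tested were called higher and lower. In that fit the log2 fold change was −0.29 for LARS2, −0.28 for FARSA and −0.27 for KARS1, and the lone KO sample was assumed to vary like the WT samples. Without KO replicate 2 the same 3 values were −0.11, −0.10 and −0.04, and no synthetase was called. Without either WT sample, none was called.

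Pairing each cytosolic gene with its mitochondrial counterpart gave 17 ratios within each sample. The ratio per kilobase was higher in both KO samples than in both WT samples for 9 pairs, lower for 4 and overlapping for 4. No share was computed for other gene pairs, so these counts have no background to be set against. The 17 ratios were also not independent, because EPRS1 and FARS2 each recur among the pairs. The counts alone thus do not show a difference between the compartments. The difference of log2 ratios had a median of 0.06. The widest difference was for leucine, where the ratio of LARS1 to LARS2 was 2.11 and 2.54 in KO and 1.97 and 1.84 in WT, or 0.28 on the log2 scale. For methionine the ratio of MARS1 to MARS2 was 9.94 and 10.7 in KO and 8.51 and 8.71 in WT, or 0.26. For tyrosine the ratio of YARS1 to YARS2 was 9.02 and 10.3 in KO and 8.39 and 7.95 in WT, or 0.24. In these 3 pairs the log2 fold change of the cytosolic gene was above 0 and that of the mitochondrial gene below 0, although YARS2 overlapped between genotypes, at 51.4 and 46.0 CPM in KO and 49.8 and 54.4 CPM in WT. Valine went the other way, with a difference of −0.21 for VARS1 to VARS2. An exact two-sided permutation test of 2 samples against 2 cannot give a p below 0.333, so no p is given for single ratios.

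Because ATF4 targets carry a composite element, the promoter windows of the synthetase genes were searched for the letters TGATGNAA, where N is any base, on both strands (TTNCATCA on the other). This search was chosen with the values of these genes known, so the comparison is a description without a test. RefSeq windows of 250 bases before to 50 bases after the transcription start on GRCh38.p14, a different build from that of the counts, were at hand for 30 of the 36 genes, and not for LARS1, TARS3, VARS1, YARS1, AARS2 and VARS2. The element was found in 7 of 16 cytosolic and 1 of 14 mitochondrial genes with a window, and in 4.46% of all 27305 genes with one. The stretches around it are printed, each 5′ to 3′ in the direction of the gene's own strand with the element in capitals.
AARS1: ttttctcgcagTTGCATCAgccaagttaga
CARS1: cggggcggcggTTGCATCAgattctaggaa
GARS1: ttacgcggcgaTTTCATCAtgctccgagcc
IARS1: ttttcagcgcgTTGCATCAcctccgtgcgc
MARS1: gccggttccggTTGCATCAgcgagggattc
NARS1: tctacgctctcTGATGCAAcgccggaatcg
TARS1: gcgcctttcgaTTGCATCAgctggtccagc
YARS2: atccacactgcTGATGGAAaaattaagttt

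The printed stretches of 30 bases lie at chr16:70289675-70289704 for AARS1, chr11:3057407-3057436 for CARS1, chr7:30594834-30594863 for GARS1 and chr9:92293692-92293721 for IARS1. Those of the other genes lie at chr12:57488053-57488082 for MARS1, chr18:57621804-57621833 for NARS1, chr5:33440956-33440985 for TARS1 and chr12:32756076-32756105 for YARS2. In CARS1, MARS1, IARS1 and GARS1 the element began 2, 4, 13 and 33 bases before the start, in AARS1 and YARS2 187 and 197 bases before it, and in TARS1 and NARS1 3 and 15 bases after it. In 6 of the 7 cytosolic windows, all but that of GARS1, the element had the same 8 letters on one strand or the other.

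All 7 cytosolic genes with the element were higher in both KO samples than in both WT samples, with log2 fold changes from 0.05 for TARS1 to 0.18 for CARS1 and a median of 0.11. The 9 cytosolic genes whose window lacked these letters ranged from −0.18 to 0.04, with a median of −0.08, and none was higher in both KO samples, while 5 were lower in both. Of the 4 cytosolic genes with no window at hand, 2 were higher in both KO samples and 2 were lower in both. YARS2, the mitochondrial gene with the element, had a value of −0.10. Over all genes tested with a window, both KO samples were higher for 28.5% of the 355 genes with the element and for 23.7% of the 12450 without it, with medians of 0.02 and 0.001. Both were lower for 21.7% of those with it and for 24.3% of those without it. Among all genes tested with a mean log2 CPM over 6, both KO samples were higher for 13.3% and lower for 40.8%. The ranges of the 2 cytosolic classes overlapped in 3 of the 4 fits that left out a sample. Without KO replicate 1, EPRS1, which lacks the element, was at 0.0339 and TARS1 at 0.0305. Without KO replicate 2 or WT replicate 2, SARS1, which also lacks it, was at 0.07 and 0.06 and TARS1 at 0.06 and 0.05. Among 24 other genes of the amino acid response, described at the end, the 8 with the element had a median of 0.26 and the 10 with a window that lacked it also 0.26. A match of letters does not show that a factor binds there.

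**Figure D4:**
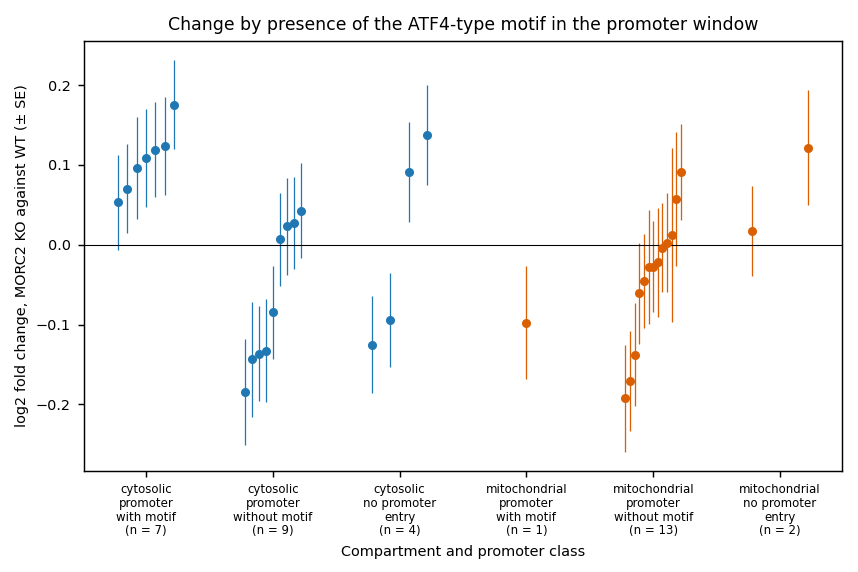
Log2 fold change, MORC2 KO minus WT, of cytosolic and mitochondrial synthetases by whether the promoter window holds the element, lacks it or was not at hand, with bars of ± 1 SE from edgeR. The 7 cytosolic genes with the element lie between 0.05 and 0.18, and the 9 without it between −0.18 and 0.04.

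Other genes of tRNA charging were measured next, in a list of 16 that holds the scaffold proteins of the complex, the export receptor XPOT, the selenocysteine route and the sensors of uncharged tRNA. None passed the test in either direction, and 2 were higher at an unadjusted p under 0.05 in edgeR, with none lower. Among all genes tested, 8.14% were higher and 6.17% lower at that level. SEPSECS, the last enzyme of selenocysteinyl-tRNA synthesis, was at 15.0 and 16.9 CPM in KO and at 12.8 and 12.8 CPM in WT, a difference of 0.32 with an adjusted p of 0.156 in edgeR. XPOT, which exports mature tRNA from the nucleus, was at 332.4 and 353.1 CPM in KO and at 301.6 and 309.5 CPM in WT, a difference of 0.17. The list as a whole had a median of −0.05 with 4 of 16 values above 0. The scaffolds AIMP1, AIMP2 and EEF1E1 were at −0.12, −0.04 and −0.09, and the uncharged-tRNA sensor EIF2AK4 (GCN2) was at −0.07.

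ATF4 mRNA was at 863.3 and 824.0 CPM in KO and at 836.2 and 856.1 CPM in WT, a log2 fold change of −0.004, with overlapping groups. ATF4 is controlled largely at translation, and its protein was not measured in these samples. A list of 24 other genes of the amino acid response, chosen with results of these data known and holding no synthetase, gave larger values than the synthetases. In it, 7 genes rose in MORC2 KO at an adjusted p under 0.05 in edgeR, with log2 fold changes of 0.58 for the cystine transporter SLC7A11, 0.54 for JDP2, 0.53 for PCK2, 0.44 for the neutral amino acid carrier SLC1A4, 0.40 for asparagine synthetase ASNS, 0.37 for PSAT1 of serine synthesis and 0.32 for CTH of cysteine synthesis. None fell, where 0.588% of all genes tested were called higher and 0.0300% lower. All 24 values were above 0, against 51.5% over all genes tested, and the median was 0.24. Relative to the WT mean, the median of the list was 0.16 in KO replicate 1 and 0.30 in KO replicate 2. The choice of that list is not independent of its direction, so its values are a description and not a background for the synthetases. The 20 cytosolic synthetases had a median of 0.04 in the same fit, and even the highest, CARS1 at 0.18, was below the median of that list.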

How the data were processed

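Per the study's methods, the authors aligned 65 bp read pairs to T2T-CHM13 with Subread 2.0.6 and deposited raw counts per RefSeq gene from featureCounts. The methods name default options, but the command in the file header also counts multi-mapping read pairs, and the header is followed here. It sets no strand and leaves out pairs that overlap several genes. Counts of paralogs and of overlapping genes are therefore uncertain. Entrez identifiers were matched to symbols for 28763 of 28775 genes.

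Genes were filtered with filterByExpr, scaled by TMM (factors 0.986 to 1.03) and tested with edgeR 4.0.16 quasi-likelihood F-tests in its older form (R 4.3.3, limma 3.58.1), KO against WT with 2 samples each and no covariate. p-values were adjusted by Benjamini-Hochberg over the 16675 genes tested, with a threshold of 0.05. DESeq2 1.42.0 was an alternative. The biological coefficient of variation was 5.33%. The scripts were tested on simulated counts. The methods call the 2 WT samples independent replicates and the 2 KO samples independent lines, but the labels do not say how the WT samples were separated, so p-values measure the spread between these samples, which may be technical for WT. The members, lists and motif were chosen with earlier results of these data known. Every synthetase is named with a value. Values in every sample are given for genes with an unadjusted p under 0.05, the 2 highest and 2 lowest per compartment, TARS3 and the 3 pairs whose ratios differed most. CPM uses TMM-scaled library sizes, and levels were divided by the exon length in the table. Some genes of tRNA charging are not reported here.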

Additional observations from a re-analysis of the deposited data

How the results depend on the processing

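No synthetase was called with DESeq2, robust dispersions or the newer form of edgeR, nor with RLE factors, library size alone or loess offsets on abundance. The same held with offsets for GC content and length, no low-count filter or a minimum of 10 counts. In the main fit, none was called at an adjusted p under 0.10 either. The smallest adjusted p, over these fits and the replicate block with and without GC content and length offsets, lay between 0.0795 and 0.348. The 0.0795, in edgeR, came with no low-count filter, so the result at 0.10 holds for the main fit and not for that one. With the replicate block the count was also 0. The labels do not say whether the numbers mark a shared culture. The correlation of same-numbered deviations over the genes tested was −0.124, and with 2 pairs it cannot settle this. With the crossed replicate block, chosen after seeing the data, 5 synthetases were called, 1 higher and 4 lower, when 903 and 809 of all 16675 genes tested were. When 1 sample was left out at a time, the lone sample of its genotype being assumed to vary like the other group, the count went from 0 to 10, with 0 to 5 cytosolic and 0 to 5 mitochondrial genes, and the 10 arose without KO replicate 1 alone. The mitochondrial median went from −0.0868 to −0.0017 and the cytosolic median from 0.0145 to 0.0493 in these fits. The cytosolic median moved to 0.0742 with library size alone, where the mitochondrial median was 0.0147 and that over all genes tested 0.0451. It moved to 0.105 with loess offsets.

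Over all genes tested, the calls were 98 higher and 5 lower, against 115 and 17 in DESeq2, 187 and 34 with GC content and length offsets, 463 and 182 with no filter, 237 and 42 with the replicate block, 292 and 77 with the replicate block and those offsets together, 1397 and 2117 without KO replicate 1, 142 and 30 without KO replicate 2, 149 and 9 without WT replicate 1, and 88 and 14 without WT replicate 2.

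Signs changed for genes near 0. CARS2 was at −0.0034 in DESeq2 and −0.0033 with RLE factors. With library size alone, IARS2 was at 0.0122, RARS2 at 0.0172, TARS2 at 0.0362, WARS2 at 0.0106 and ATF4 at 0.0347. All of these lay below the median over all genes tested in that fit, 0.0451. With loess offsets, FARS2 was at −0.0323, IARS2 at 0.035, TARS2 at 0.0411 and ATF4 at 0.0905. With GC content and length offsets, EPRS1 was at −0.002, AARS2 at −0.0092, TARS2 at 0.0041 and ATF4 at 0.0125, and with the replicate block added they were at −0.002, −0.009, 0.0039 and 0.0124. Leaving out samples gave ranges of −0.0002 to 0.0411 for EPRS1, −0.0345 to 0.0474 for QARS1, −0.0014 to 0.0747 for SARS1, −0.0128 to 0.0556 for WARS1, −0.0464 to 0.0515 for CARS2, −0.1117 to 0.142 for FARS2, −0.0452 to 0.1456 for PARS2, −0.0956 to 0.0398 for RARS2, −0.0223 to 0.0143 for TARS2, −0.1398 to 0.0675 for WARS2 and −0.0515 to 0.0304 for ATF4. The causes were not tested.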
